A study of Mus musculus with 6 samples.

Results

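A set of cholesterol synthesis genes and their regulators, 7 of the 32285 genes in the deposited matrices, were followed across cell classes and ages of the mouse retina. They were chosen by symbol: Hmgcs1, Idi1, Fdft1, Sqle, Cyp51, Insig1 and Srebf2. Nuclei of retinas were profiled by RNA sequencing with the droplet-based 10x kit that reads the 3' end of each transcript, in wild-type C57BL6/J mice of 3 and of 18 months, with 3 libraries at each age. No allele, transgene or treatment is given for any group, and neither the sex of the mice nor the number of retinas behind a library is stated. The series title speaks of supplementation with polyunsaturated fatty acids, and no supplemented group is among these libraries.

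Cells build cholesterol from acetyl-CoA through mevalonate, the isoprenoid units, squalene and lanosterol. Hmgcs1 (HMG-CoA synthase) acts at the entry to the mevalonate pathway, Idi1 (isopentenyl diphosphate isomerase) interconverts the isoprenoid units, Fdft1 (squalene synthase) and Sqle (squalene epoxidase) make and oxidise squalene, and Cyp51 (lanosterol demethylase) opens the conversion of lanosterol to cholesterol. Srebf2 encodes SREBP-2, the transcription factor that switches these enzymes on when sterols are low, and Insig1, one of its targets, encodes an endoplasmic reticulum protein that holds SREBP-2 back when sterols are high. In the retina, both local synthesis and uptake from lipoproteins supply cholesterol, and synthesis has been placed in neurons as well as in Müller glia.

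All 7 are protein-coding genes. On build mm10, Hmgcs1 lies at chr13:119690379-119708260 and Idi1 at chr13:8885501-8892451. Fdft1 lies at chr14:63145150-63179578, Sqle at chr15:59315077-59331192 and Srebf2 at chr15:82147181-82205379. Cyp51 lies at chr5:4081145-4104746 and Insig1 at chr5:28071363-28078662.

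The genes shared promoter features that their choice did not use. RefSeq promoter sequences (GRCm38.p6, 250 bases before to 50 bases after the start) were matched for 5 of the 7: Hmgcs1, Idi1, Cyp51, Insig1 and Srebf2. A CCAAT box (CCAAT, both strands) was found in 5 of 5, against 37.4% of the 32851 promoters in the table. A GC box (GGGCGG, both strands) was likewise found in 5 of 5, against 35.7% of promoters. The sterol response element TCACNCCAC, the kind of site that SREBP-2 binds, was matched in Hmgcs1 alone of the 5 and in 1.24% of all promoters. Only this string was searched for that element, so a promoter without a match may still hold another form of it. An E-box (CACGTG) was matched in Insig1 alone and in 7.15% of all promoters. These matches are letters in a window and were not tested for use. No match overlapped one of another motif in these 5 promoters. The members' promoters held 52.3% to 71.7% G and C, where the median promoter held 52.7%. Below are the promoter that matched the sterol element string and that of the pathway's transcription factor, 5′ to 3′ on the gene's strand (both plus). The match to that string and CCAAT boxes, either strand, are in capitals.
Hmgcs1, chr13:119690101-119690400: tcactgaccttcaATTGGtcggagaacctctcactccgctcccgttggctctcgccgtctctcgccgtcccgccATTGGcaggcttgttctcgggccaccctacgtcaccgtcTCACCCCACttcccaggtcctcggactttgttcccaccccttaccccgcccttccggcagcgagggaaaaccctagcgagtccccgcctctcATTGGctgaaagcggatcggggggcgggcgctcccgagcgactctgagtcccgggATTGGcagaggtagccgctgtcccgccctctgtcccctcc
Srebf2, chr15:82147019-82147318: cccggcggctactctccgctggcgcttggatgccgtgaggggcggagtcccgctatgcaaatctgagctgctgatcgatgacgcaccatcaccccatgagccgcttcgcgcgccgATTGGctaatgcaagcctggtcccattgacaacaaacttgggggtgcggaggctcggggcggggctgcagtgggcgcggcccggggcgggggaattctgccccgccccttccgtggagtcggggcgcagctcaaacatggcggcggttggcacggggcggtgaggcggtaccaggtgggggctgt
Hmgcs1 carried 4 CCAAT boxes beside 1 sterol element, which begins at position -137 when the start is counted as 0. Srebf2 carried 1 CCAAT box, beginning at -135, and 5 GC boxes.

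The files gave 15905689 to 29340705 UMIs (counted molecules) per library, and 5027 to 14083 nuclei per library were kept, 50241 in all. Clusters were named from marker genes, so that "rods" and the other names below stand for rod-like nuclei and so on. Every cone-like cluster had 12 of 12 cone markers, the Müller glia-like cluster 12 of 14, the horizontal-like cluster 11 of 11 and the rod bipolar-like cluster 11 of 12, whereas rod-like clusters had 5 to 11 of 12, amacrine-like clusters 4 to 10 of 14, ganglion cell-like clusters 6 to 11 of 15 and cone bipolar-like clusters 4 to 14 of 16. The Müller glia-like cluster also had 6 of 8 astrocyte markers. Of all kept nuclei 33% stayed unnamed, and 18-month replicate 3 stood apart with 82.6% unnamed against 5.15% to 24.7% in the other 5 libraries. Replicate 1 of both ages came from Cell Ranger release 7.1.0 and the other libraries from 7.2.0, and rods and cones of these 2 releases fell mainly into different clusters (rods into cluster 7 for release 7.1.0 and into clusters 1 and 2 for release 7.2.0; cones into 17 and 13). Rod cluster 1, which held 71.8% and 83.3% of the rods of 18-month replicates 2 and 3, was led by haemoglobin genes, whereas cluster 2 held 56.5% and 53.4% of those of 3-month replicates 2 and 3, so that within release 7.2.0 the rods of the 2 ages also lay mainly in different clusters. Libraries shared 11 to 74 barcodes in a pair, at most 0.506% of the smaller library.

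The first comparison asked which retinal cell classes carried most RNA of these genes. Among the 8 tested classes, all 7 genes were highest in amacrine cells, the inhibitory interneurons of the inner retina. Retinal ganglion cells, the output neurons of the retina, came next. Amacrine cells stood above the mean of the other 7 classes by 1.06 (Insig1) to 1.30 (Srebf2) on the log2 scale, and retinal ganglion cells by 0.79 (Idi1) to 1.06 (Hmgcs1). Cones were lower for all 7, by log2 differences of -0.58 (Fdft1) to -1.25 (Srebf2). The contrast of each class with the mean of the other 7, within libraries, was tested by edgeR's quasi-likelihood test over 12074 genes, and a gene was called where the p adjusted by the Benjamini-Hochberg method was 0.05 or less. All 7 were called higher in amacrine cells, where 27.1% of all genes were called higher, and all 7 in retinal ganglion cells, where 34.6% were. All 7 were called lower in cones, where 25.6% of genes were. The 7 genes and the related lists below were kept out of the variable genes used for clustering. Unnamed clusters were not part of this ranking. Pooled over libraries, Insig1 was 86.9 and 77.2 CPM in unnamed clusters 0 and 3. It was 72.0, 67.1 and 65.2 in amacrine clusters 5, 8 and 18. Hmgcs1, Fdft1, Sqle, Cyp51 and Srebf2 were lower in clusters 0 and 3 than in these amacrine clusters. Of the 8815 nuclei of cluster 0, 8554 were of 18-month replicate 3. The named amacrine class left out amacrine-like nuclei. Clusters 21 and 26 (810 and 706 nuclei) matched it best but with too few markers. Cluster 24 (731) matched amacrine and horizontal cells equally. Pooled over libraries, cluster 26, led by genes such as Chat, had 81.7 CPM of Hmgcs1, 34.15 of Sqle and 58.2 of Cyp51. Its Insig1 was 42.55. In the ganglion cell clusters the lowest values were 88.2, 36.7, 78.3 and 42.8. The Idi1, Fdft1 and Srebf2 of cluster 26 lay within the range of those clusters. Cluster 24 lay below all of them for Hmgcs1 (62.0), Sqle (34.5), Cyp51 (52.6) and Insig1 (42.7). It also did for Fdft1 (43.3, against 43.6 at the lowest), while its Idi1 and Srebf2 lay within their range. Cluster 21 lay below all of them for Cyp51 alone (67.6).

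Levels are normalised CPM, that is CPM of UMIs scaled by the TMM factors of all 48 sums of a library and class. Values in this form are given below for 3-month replicates 1 to 3 and then 18-month replicates 1 to 3.

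Hmgcs1 in amacrine cells stood at 163.7, 116.7 and 119.6 at 3 months and at 160.2, 102.9 and 98.4 at 18 months. In retinal ganglion cells its values were 175.4, 99.3 and 108.2, and then 194.0, 82.5 and 82.4. In cones they were 42.2, 54.8 and 38.5, and then 27.7, 27.7 and 29.6. Every amacrine and ganglion cell library therefore lay above every cone library, and in both neuron classes the replicate 1 libraries were the highest at each age. Its mean was 126.9 ± 28.3 in amacrine cells and 123.6 ± 48.7 in retinal ganglion cells (SD, n = 6 libraries each), a pair that did not differ beyond its spread (log2 difference 0.07 ± 0.15 SE, adjusted p = 0.812, edgeR). Horizontal cells came next at 86.9 ± 34.4, below retinal ganglion cells by 0.51 ± 0.19 (adjusted p = 0.0392), and were called higher than the mean of the other classes (0.47 ± 0.18, adjusted p = 0.038) where 16.4% of genes were. That call was lost in 9 of 11 alternatives. Rods (61.7 ± 6.9), Müller glia (51.8 ± 9.5), rod bipolar cells (47.2 ± 13.2), cone bipolar cells (39.5 ± 18.7) and cones (36.8 ± 10.7) followed, and no neighbours from horizontal cells downward differed at the threshold. Hmgcs1 was the 1 member called lower in cone bipolar cells (-0.62 ± 0.18, adjusted p = 0.0133), where 3.3% of all genes were, and that call was lost in 7 of 11 alternatives.

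Idi1 gave 46.4, 52.5 and 51.5 in amacrine cells at 3 months and 41.7, 34.7 and 33.5 at 18 months. Its mean in retinal ganglion cells, 35.4 ± 3.3, had the narrowest spread of its 8 classes and did not differ from that in amacrine cells (43.4 ± 8.2; log2 difference 0.29 ± 0.19, adjusted p = 0.288). Rods came next at 23.4 ± 9.3, below retinal ganglion cells by 0.59 ± 0.20 (adjusted p = 0.00734). The other 5 classes had means from 12.8 to 23.2 and no neighbours among them differed. No UMI of Idi1 was counted in cones of 18-month replicate 3 or in rod bipolar cells of 18-month replicate 1, and counts of 0 allow up to 24.8 and 17.1 CPM there. Cones were called lower for Idi1 (-0.65 ± 0.27, adjusted p = 0.0442), a call lost in 6 of 11 alternatives.

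Fdft1 stood at 122.4, 85.1 and 82.5 in amacrine cells at 3 months and at 109.0, 81.2 and 60.7 at 18 months. The lowest of these libraries, 18-month replicate 3, overlapped the highest libraries of rod bipolar cells (60.8), horizontal cells (61.4) and Müller glia (79.5). Retinal ganglion cells (78.4 ± 17.6) did not differ from amacrine cells (90.1 ± 22.0) by the test (log2 difference 0.23 ± 0.15, adjusted p = 0.296). Below them came a step of 0.87 ± 0.21 to Müller glia (adjusted p = 6.2e-04). The other 6 classes lay between means of 33.6 and 45.4, with no difference between neighbours.

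Sqle gave 73.6, 60.6 and 71.9 in amacrine cells at 3 months and 69.8, 48.0 and 29.3 at 18 months, so that 18-month replicate 3 was the lowest. Its mean in retinal ganglion cells, 51.8 ± 11.8, was not different from 58.9 ± 17.3 in amacrine cells (0.20 ± 0.14, adjusted p = 0.331), and rods (31.6 ± 11.6) lay below retinal ganglion cells by 0.65 ± 0.15 (adjusted p = 1.2e-04). Cones were lowest at 16.5 ± 6.3, without a difference from the next class, rod bipolar cells (18.3 ± 7.6, adjusted p = 0.416).

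Cyp51 had narrow spreads in amacrine cells, at 104.8, 115.8 and 109.8, and then 122.2, 91.1 and 92.2. Retinal ganglion cells followed at 99.0 ± 16.6, and the pair did not differ (0.10 ± 0.13, adjusted p = 0.641). Horizontal cells (60.6 ± 17.7) lay below retinal ganglion cells by 0.71 ± 0.18 (adjusted p = 0.00154). Cyp51 was the 1 member whose lowest class was rod bipolar cells by both its mean (30.6 ± 4.0) and its contrast (-0.87 ± 0.15, adjusted p = 2.7e-05), although cones at 32.1 ± 8.0 were not different (adjusted p = 0.947).

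Among the regulators, Insig1 gave 64.6, 73.3 and 95.4 in amacrine cells at 3 months and 70.2, 59.4 and 94.3 at 18 months, and in cones 13.6, 20.2 and 30.8, and then 13.2, 13.1 and 29.6. The groups did not overlap, and the replicate 3 library was the highest of its age in both classes. The classes formed 3 steps for Insig1: amacrine and retinal ganglion cells (76.2 ± 15.2 and 72.7 ± 19.6, adjusted p = 0.593) lay above horizontal cells (48.4 ± 16.5, lower than retinal ganglion cells by 0.58 ± 0.16, adjusted p = 0.00368), and cones (20.1 ± 8.3) lay below rod bipolar cells by 0.73 ± 0.20 (adjusted p = 0.0035). Insig1 was thus the 1 member for which cones differed from the next lowest class.

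Srebf2 was ordered differently from the enzymes. It stood at 251.5, 168.3 and 173.4 in amacrine cells at 3 months and at 269.2, 159.0 and 144.5 at 18 months, and its amacrine mean (194.3 ± 52.4) exceeded that of retinal ganglion cells (147.0 ± 45.8) by 0.41 ± 0.15 (adjusted p = 0.037). The other 6 members showed no difference between these 2 classes at the threshold. Müller glia came next, at 141.8, 71.6 and 77.0, and then 153.6, 122.0 and 134.8. They did not differ from retinal ganglion cells at the threshold (lower by 0.28 ± 0.17, adjusted p = 0.194, edgeR). They were called higher than the mean of the other classes (0.51 ± 0.15, adjusted p = 0.00736), where 16.2% of all genes were, and the other 6 members had values of -0.51 to -0.06 there. That call was lost in 3 of 10 alternatives, each of which left out 1 of the 18-month libraries (0.40 to 0.42). In rods Srebf2 was the 1 member called: it was lower (-0.80 ± 0.14, adjusted p = 1.5e-06), where 34.5% of genes were, and the other 6 had values of -0.22 to 0.16. Without 18-month replicate 3 or without 18-month replicate 1, Sqle was also called in rods, as higher (0.34, adjusted p = 0.0153, and 0.32, adjusted p = 0.047). Insig1 was also called lower in rods at a clustering resolution of 0.5 (-0.44, adjusted p = 0.00658), and Fdft1 with nuclei of at most 2% mitochondrial UMIs (-0.41, adjusted p = 0.0482).

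**Figure D1:**
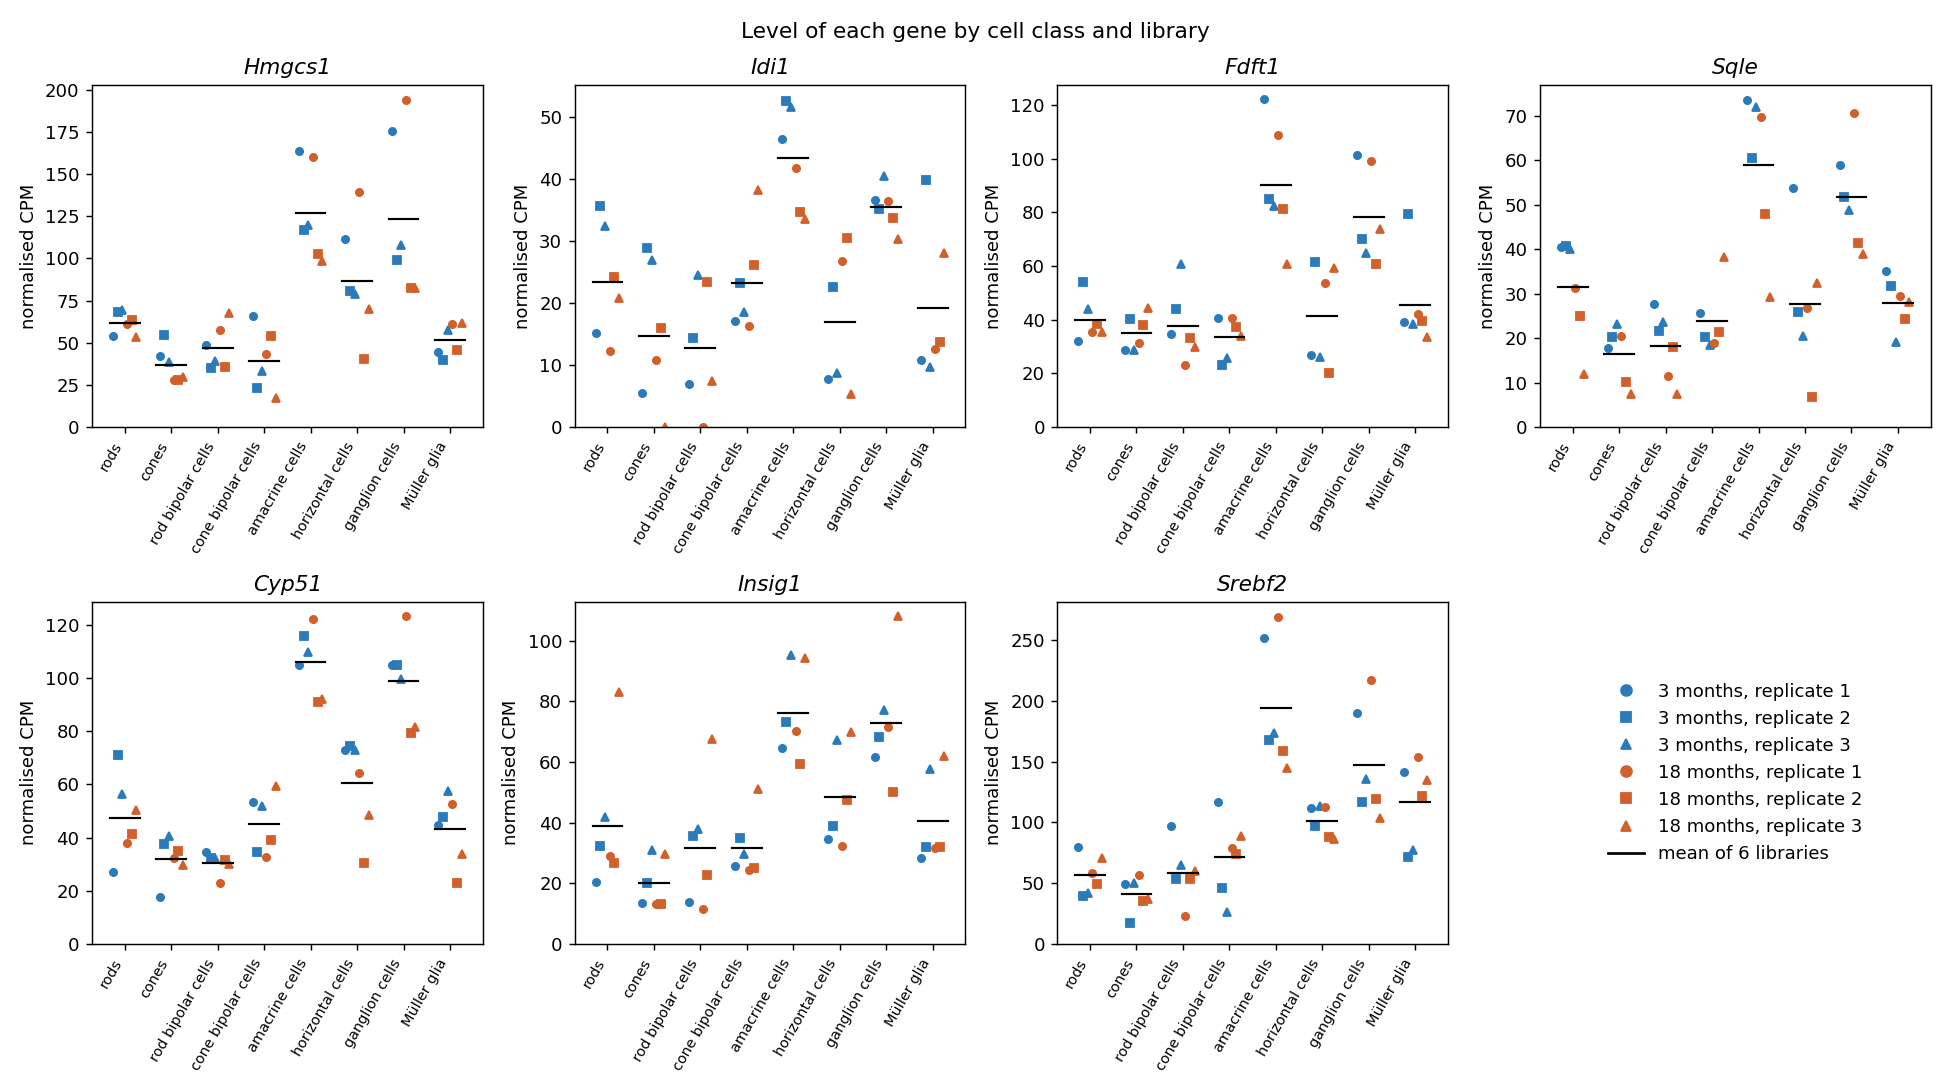
Normalised CPM (linear axis from 0, own scale per gene) of each gene in 8 cell classes; points are libraries (blue 3 months, orange 18 months; shape gives the replicate) and lines are means of 6 libraries. Amacrine and ganglion cells hold the 2 highest means in every panel, such as 194.3 and 147.0 for Srebf2.

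Rod bipolar cells were called lower for 5 of 7 members, all but Fdft1 and Idi1, where 8.58% of all genes were called lower. Their values ran from -0.87 for Cyp51 to -0.10 for Fdft1. Of 10 alternatives, the call was lost for Insig1 in 8, for Sqle and Srebf2 in 4 each and for Hmgcs1 in 1, and it was kept for Cyp51 in all 10. The number called was 2 with the 2% mitochondrial limit and 2 with library size as the only scaling. The named class was cluster 12 alone. Cluster 11 matched rod and cone bipolar markers equally and stayed unnamed. It held 604 and 584 nuclei of 3-month and 18-month replicate 1, against 93 and 80 in cluster 12. Pooled over libraries, cluster 11 stood above cluster 12 for Hmgcs1 (72.4 against 42.2 CPM), Sqle (34.7 against 23.6), Cyp51 (56.9 against 34.95) and Srebf2 (125.5 against 65.4). It was lower for Idi1, Fdft1 and Insig1.

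Depth differed between the classes, and its part in these levels was not tested. Retinal ganglion cells had 3609 UMIs per nucleus and amacrine cells 2361, against 988 in rods and 1406 in cones. Rod bipolar cells had 5807 over all libraries, with 1420 to 14550 between them, and lay below retinal ganglion cells in 4 of 6 libraries. In amacrine and retinal ganglion cells all 7 members were called higher in all 11 alternatives, including those without 18-month replicate 3. In cones 6 or 7 were called lower in all 11. Amacrine and ganglion cells were drawn from the same clusters in nearly all libraries (cluster 5 was the largest amacrine cluster in 5 of 6 and cluster 4 the largest ganglion cell cluster in 6 of 6).

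**Figure D2:**
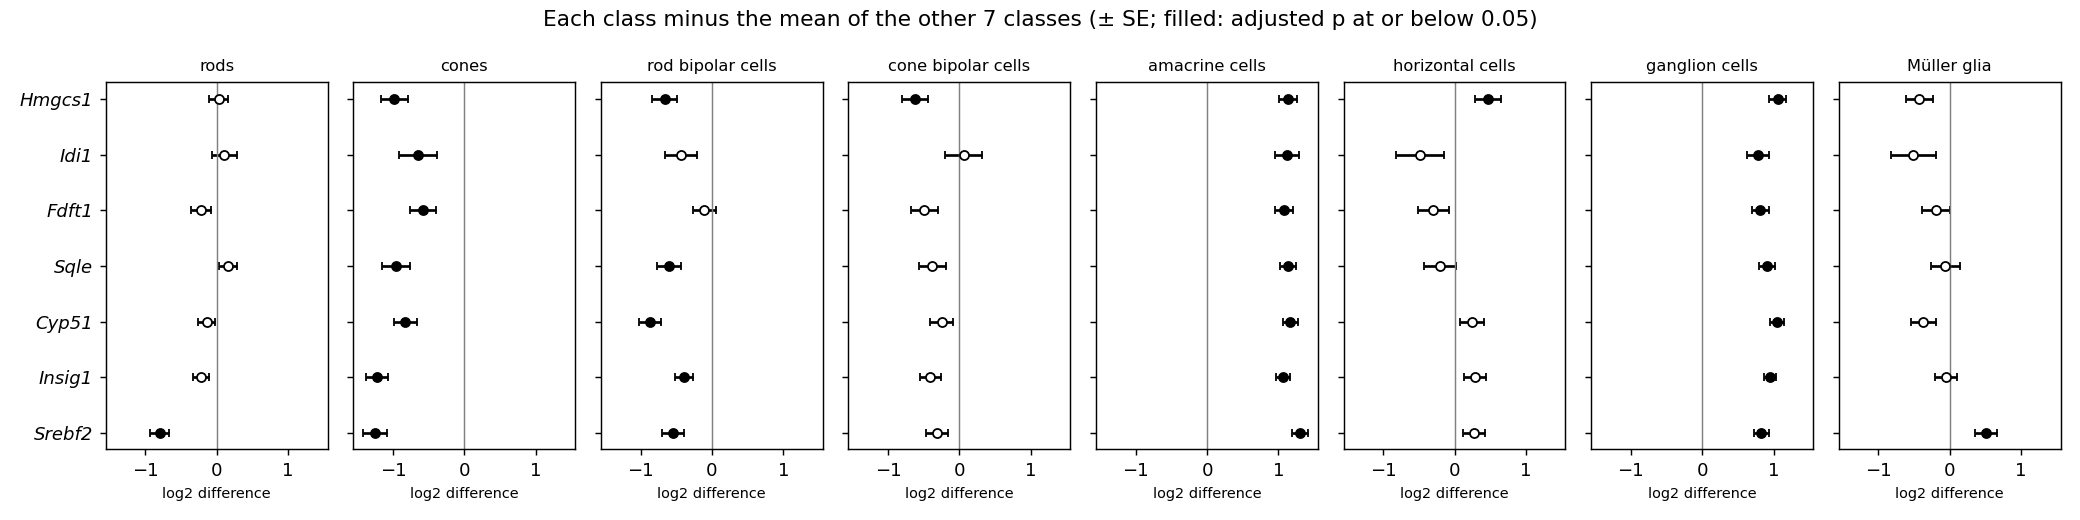
Log2 difference between each class and the mean of the other 7 classes, ± SE, for the 7 genes; filled points had an adjusted p at or below 0.05. All 7 points are filled to the right of 0 in amacrine and ganglion cells and to the left in cones, and Srebf2 departs from the other genes in rods and Müller glia.

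Microglia and vascular nuclei stood below the 20 nuclei per library set for a test, and their counts were pooled over the 6 libraries. In 337 microglia, the resident immune cells, 64 UMIs of Srebf2 gave 108.1 CPM (95% exact Poisson interval 83.3 to 138.1) and 38 UMIs of Hmgcs1 gave 64.2 CPM (45.4 to 88.1). In 418 vascular nuclei, with markers of pericytes or smooth muscle and of endothelial cells, Srebf2 gave 92.1 CPM (67.7 to 122.5) and Hmgcs1 76.4 CPM (54.3 to 104.5). These intervals cover counting error only, and both classes pool libraries of both ages.

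The rest of the synthesis pathway was ordered by class in a similar way. Of 15 other enzymes, 14 were tested: 11 were called higher and 0 lower in amacrine cells (median log2 difference 0.81, against -0.02 over all genes), where 27.1% of all genes were called higher and 22.4% lower. Among them were Acat2 (acetoacetyl-CoA thiolase, 1.43 ± 0.15), Lss (lanosterol synthase, 1.34 ± 0.12) and Msmo1 (sterol C4 methyl oxidase, 1.12 ± 0.12). In retinal ganglion cells 8 of 14 were higher, among them Lss (1.06 ± 0.11), Dhcr7 (0.97 ± 0.14) and Acat2 (0.78 ± 0.14), and 1, the sterol isomerase Ebp, was lower (-0.63 ± 0.17), where 34.6% and 30.1% of all genes were. In cones, where 25.6% of all genes were lower and 22% higher, 9 of 14 were lower and 0 higher (median -0.57), among them Acat2 (-0.95 ± 0.28), Sc5d (-0.89 ± 0.18) and Dhcr7 (-0.86 ± 0.28). In Müller glia their median was -0.21. In rods 4 of 14 were higher, led by Ebp (0.85 ± 0.16), and 5 lower, led by Nsdhl (-0.60 ± 0.18), which is near the 32.9% and 34.5% of all genes so called.

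Uptake and transport genes did not follow the enzymes as a group. In amacrine cells 3 of 10 were higher, near the 27.1% of all genes, and 4 lower, where 22.4% of all genes were. The receptor Lrp1 (1.24 ± 0.13) and the sterol carrier Stard4 (1.15 ± 0.16) were higher, and the lipoprotein receptors Scarb1 (-1.38 ± 0.17) and Vldlr (-0.59 ± 0.14) were lower. Cones showed the reverse, with Scarb1 (1.68 ± 0.14) and Vldlr (0.98 ± 0.13) higher and Lrp1 (-2.55 ± 0.25) and Stard4 (-1.13 ± 0.30) lower. Müller glia were higher in Lrp1 (1.62 ± 0.16), Scarb1 (1.11 ± 0.17) and Npc1 (0.51 ± 0.13), the last a lysosomal cholesterol exporter, and lower in Vldlr (-0.73 ± 0.18), where 16.2% of all genes were higher and 8.8% lower.

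Of the genes of efflux, storage and oxysterols, 6 of 9 were tested. In rods 5 of 6 were higher, against 32.9% of all genes, led by Mylip (1.15 ± 0.15), which marks lipoprotein receptors for degradation, and the efflux pumps Abcg1 (1.14 ± 0.14) and Abca1 (0.84 ± 0.16). In amacrine cells 5 of 6 were lower, against 22.4% of all genes, among them Soat1 (-1.63 ± 0.22), which esterifies cholesterol for storage. Müller glia were higher in Cyp27a1 (4.93 ± 0.27), a sterol hydroxylase. Among 9 other regulators, Scap, the escort of the SREBPs, was lower in amacrine (-0.38 ± 0.12) and retinal ganglion cells (-0.69 ± 0.12) and higher in cones (1.04 ± 0.12) and rods (0.42 ± 0.11). Srebf1, the related factor of fatty acid synthesis, was also lower in amacrine (-0.71 ± 0.20) and retinal ganglion cells (-0.78 ± 0.17). Erlin1, an endoplasmic reticulum membrane protein, was higher in amacrine (0.58 ± 0.16) and retinal ganglion cells (0.52 ± 0.14), and Insig2, the relative of Insig1, was higher in retinal ganglion cells (0.27 ± 0.10). Counted together, 1 of the 9 regulators was higher and 2 lower in amacrine cells, where 27.1% and 22.4% of all genes were. In retinal ganglion cells 2 were higher and 2 lower, where 34.6% and 30.1% of all genes were. These counts were not above the background.

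The genes with the most similar pattern across the 8 classes were found by Pearson correlation of mean log2(CPM + 1) among 10831 genes, as a description of 8 points that share libraries. Hmgcs1 was most like Msmo1 (r = 0.967), and Fdft1 was most like Lss (r = 0.981), both enzymes of the same pathway. Sqle had the fatty acid synthase gene Fasn in place 2 (r = 0.962), and Idi1 had Sqle in place 2 (r = 0.948). Insig1 was most like Acsl4 (r = 0.992), an acyl-CoA synthetase of long-chain fatty acids, and Cyp51 most like Vsnl1 (r = 0.976). Srebf2 was most like Flywch1 (r = 0.979), and its nearest member was Insig1 (r = 0.937, place 31). Its correlation with the 5 enzymes was 0.732 to 0.85.

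The second comparison asked whether the genes changed between 3 and 18 months within a class. No member passed the test in any of the 8 classes or in the sum of all kept nuclei. edgeR's quasi-likelihood test with age as its only term also called hardly any other gene: 0% of those tested in rods, cones, rod bipolar, cone bipolar, amacrine and retinal ganglion cells, Müller glia and all nuclei, and 0.0184% in horizontal cells. At an unadjusted p under 0.05, 122 genes in cones to 761 in rods were found. The members' count of 0 is therefore at the background. No member had an unadjusted p under 0.05 in any class (the lowest was 0.0501, for Sqle in rods), and DESeq2 called 0 as well. Across all 141 fits, alternatives included, 0 called a member, and the lowest adjusted p was 0.0775, for Sqle in rods with the replicate number as a block. Idi1 was not tested in cones, cone bipolar cells, horizontal cells and Müller glia, nor Sqle in the last 3 of these, because their counts fell below edgeR's filter.

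Retinal ganglion cells gave the most UMIs of the members, 32 to 1130 per library. There the log2 changes ran from -0.15 (Idi1, 95% interval -0.58 to 0.28) to 0.13 (Insig1, -0.51 to 0.76). Cyp51 had a change of -0.11 with an interval of -0.58 to 0.35. In rods the intervals were wider, such as -0.78 to 0.48 for Hmgcs1 and -0.82 to 1.44 for Insig1. In cones members had 0 to 47 UMIs per library, and changes within such intervals were not detectable at this depth.

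**Figure D3:**
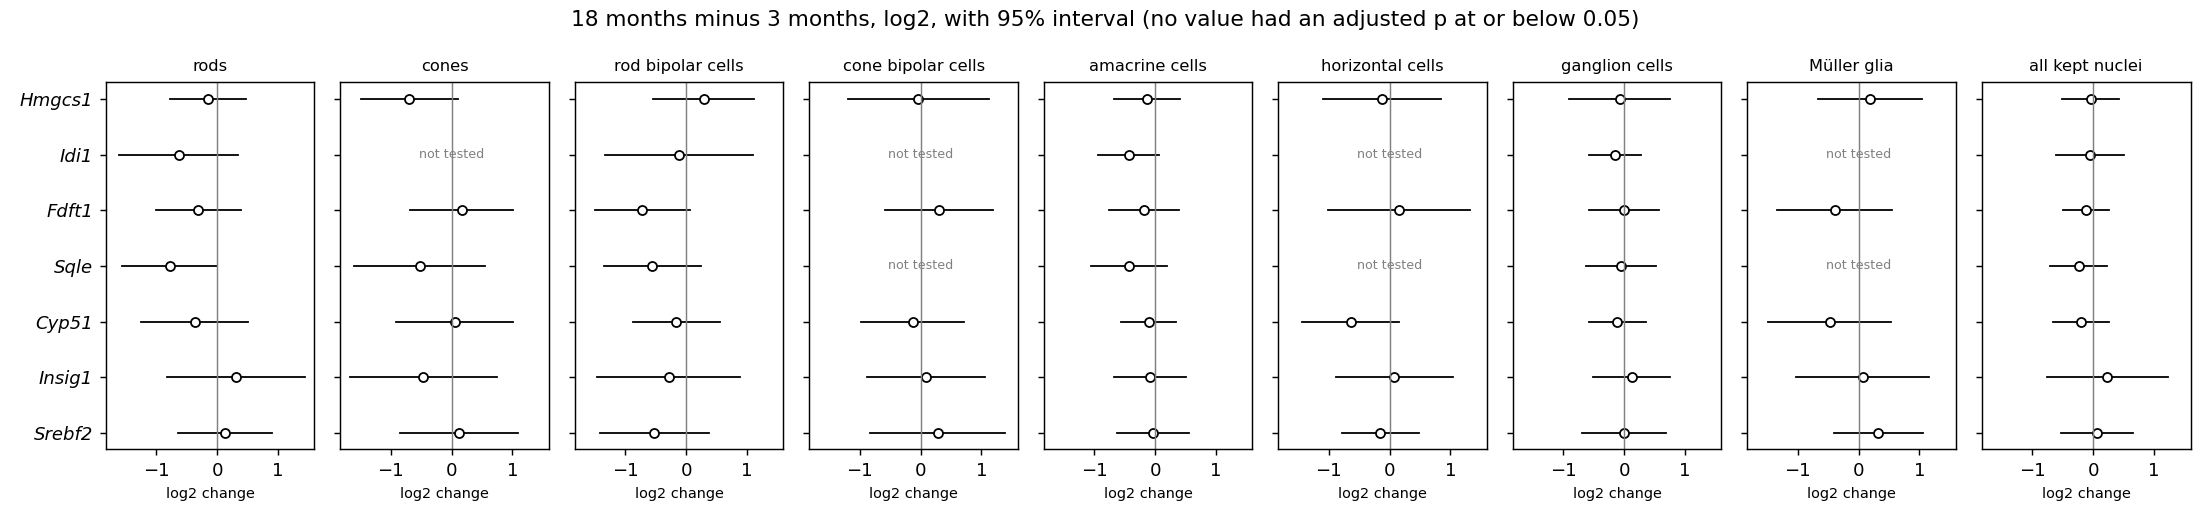
Log2 change from 3 to 18 months with its 95% interval (edgeR) for the 7 genes in 8 classes and in all kept nuclei. All intervals include 0, and the point of Sqle in rods lies furthest from 0, at -0.78.

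Sqle, whose enzyme makes the first oxygen-requiring step of sterol synthesis, was the member nearest the threshold. In rods its normalised CPM, now scaled within rods alone, was 41.9, 44.2 and 44.2 at 3 months and 31.7, 27.0 and 12.2 at 18 months. The ages did not overlap, which in rods was so in this direction for 6.44% of all genes tested. The lowest value, from 18-month replicate 3, rested on 4 UMIs, where the other libraries had 24 to 166. Pooled over libraries, Sqle stood at 30.7 CPM in rod cluster 1, the main cluster of 18-month replicates 2 and 3, and at 40.2 and 38.5 CPM in clusters 2 and 14, the latter with 824 and 260 nuclei of 3-month replicates 2 and 3 against 13 and 0 at 18 months. Cluster 6, with 202 and 356 nuclei of 3-month replicates 2 and 3 and 914 and 23 at 18 months, had the lowest value, 24.9 CPM. Cluster 7, the largest rod cluster in replicate 1 of both ages, had 31.65 CPM. The part of this makeup in the change was not tested. The log2 change was -0.78 ± 0.34 (SE; edgeR, adjusted p = 0.61), and -0.58 without 18-month replicate 3 (adjusted p = 0.815). Replicate numbers went with shared deviations in rods, and with that number as a block the change was -0.81 (adjusted p = 0.0775). That fit called 9.74% of all genes in rods and 0 of the 7 members, and in rod bipolar cells it called 0.596% of genes and 0 members. Within the 4 libraries of release 7.2.0 the change was -0.79 (adjusted p = 0.0962).

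The fitted change of Sqle was also negative in the other 4 classes in which it was tested. In cones it rested on 13, 7 and 12 UMIs at 3 months and on 17, 7 and 1 at 18 months. Across 13 alternatives it ran from -1.08 to -0.34 there. In amacrine cells the values were 69.5, 58.8 and 70.5, and then 65.1, 46.9 and 29.4, which overlap (-0.43 ± 0.28, adjusted p = 1.0). In rod bipolar cells they were 30.8, 23.5 and 25.5, and then 12.5, 19.4 and 8.16, with no overlap, but 3 of these 6 libraries held 1 to 4 UMIs. In retinal ganglion cells, the class with the most UMIs of the members, they were 51.6, 45.4 and 43.0, and then 61.5, 36.5 and 34.6, a change of -0.05 ± 0.25. In 3 of 15 alternatives it had the other sign there. The deepest rod bipolar libraries were of 3 months, and the part of depth in their Sqle values was not tested.

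The other members in rods had overlapping ages. Hmgcs1 stood at 55.8, 74.2 and 76.9, and then 62.1, 69.0 and 54.9. Cyp51 stood at 27.9, 77.0 and 62.1, and then 38.5, 44.8 and 51.8, and Idi1 at 15.7, 38.7 and 35.8, and then 12.4, 26.2 and 21.4. For Cyp51, Idi1 and Fdft1 the replicate 1 library was the lowest of its age. Srebf2 was the reverse at 3 months, with 82.0 in replicate 1 against 43.0 and 46.5. In all, 5 of 7 members had a negative change in rods (median -0.31, against -0.03 over all genes), of which Hmgcs1 was positive with library size as the only scaling and with the 2% mitochondrial limit. Of the other synthesis enzymes, 12 of 15 had a negative change (median -0.51). In the same rods 77 of 77 cytosolic ribosomal genes (median -1.09) and 13 of 13 mitochondrially encoded genes (median -0.81) had negative changes, 0 of them called, and the median mitochondrial share of rod nuclei was 1.80% to 3.54% at 3 months and 1.53% to 1.96% at 18 months. The part of these in the values of the members was not tested. With library size as the only scaling, the median of all genes in rods moved from -0.03 to 0.21, and that in horizontal cells from -0.03 to 0.19, while the change of Sqle in rods was -0.55.

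Other members without overlap between ages were few. In cones Hmgcs1 stood at 45.5, 63.5 and 44.4 at 3 months and 29.4, 31.2 and 35.3 at 18 months (-0.69 ± 0.35, adjusted p = 1.0), and 2.88% of all genes in cones had such a pattern. The last of these values rested on 4 UMIs. In rod bipolar cells Fdft1 (-0.72 ± 0.35), Sqle (-0.55 ± 0.35) and Cyp51 (-0.16 ± 0.32) did not overlap, where 4.94% of all genes were so, and all 3 had an adjusted p of 0.949 to 0.976 (edgeR). Their replicate 1 libraries and 18-month replicate 3 held 1 to 5 UMIs for these genes. The 3-month libraries of rod bipolar cells had 1568, 8939 and 14550 UMIs per nucleus, and the 18-month libraries 2190, 2633 and 1420. The deepest libraries of this class were thus of 3 months, and the part of depth in these changes was not tested. In horizontal cells Cyp51 stood at 66.5, 67.3 and 68.4, and then 60.5, 28.4 and 44.8 (-0.64 ± 0.36, adjusted p = 1.0), against 4.82% of genes.

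In amacrine cells Idi1 was the 1 member without overlap, at 43.9, 50.9 and 50.5 and then 38.9, 33.9 and 33.6, on 58 to 82 and 16 to 101 UMIs. Its change was -0.43 ± 0.22 (adjusted p = 1.0; 95% interval -0.94 to 0.07), and 2.93% of all genes there had such a pattern. All 7 members had a negative change in amacrine cells (median -0.13, against 0.01 over all genes). In the alternatives only Idi1, Sqle and Cyp51 kept that sign throughout, and Hmgcs1, Fdft1, Insig1 and Srebf2 each had at least 1 with the other sign. In amacrine cells 76 of 77 ribosomal and 13 of 13 mitochondrially encoded genes also had negative changes, with medians of -0.38 and -0.89, and their part in the members' values was not tested.

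**Figure D4:**
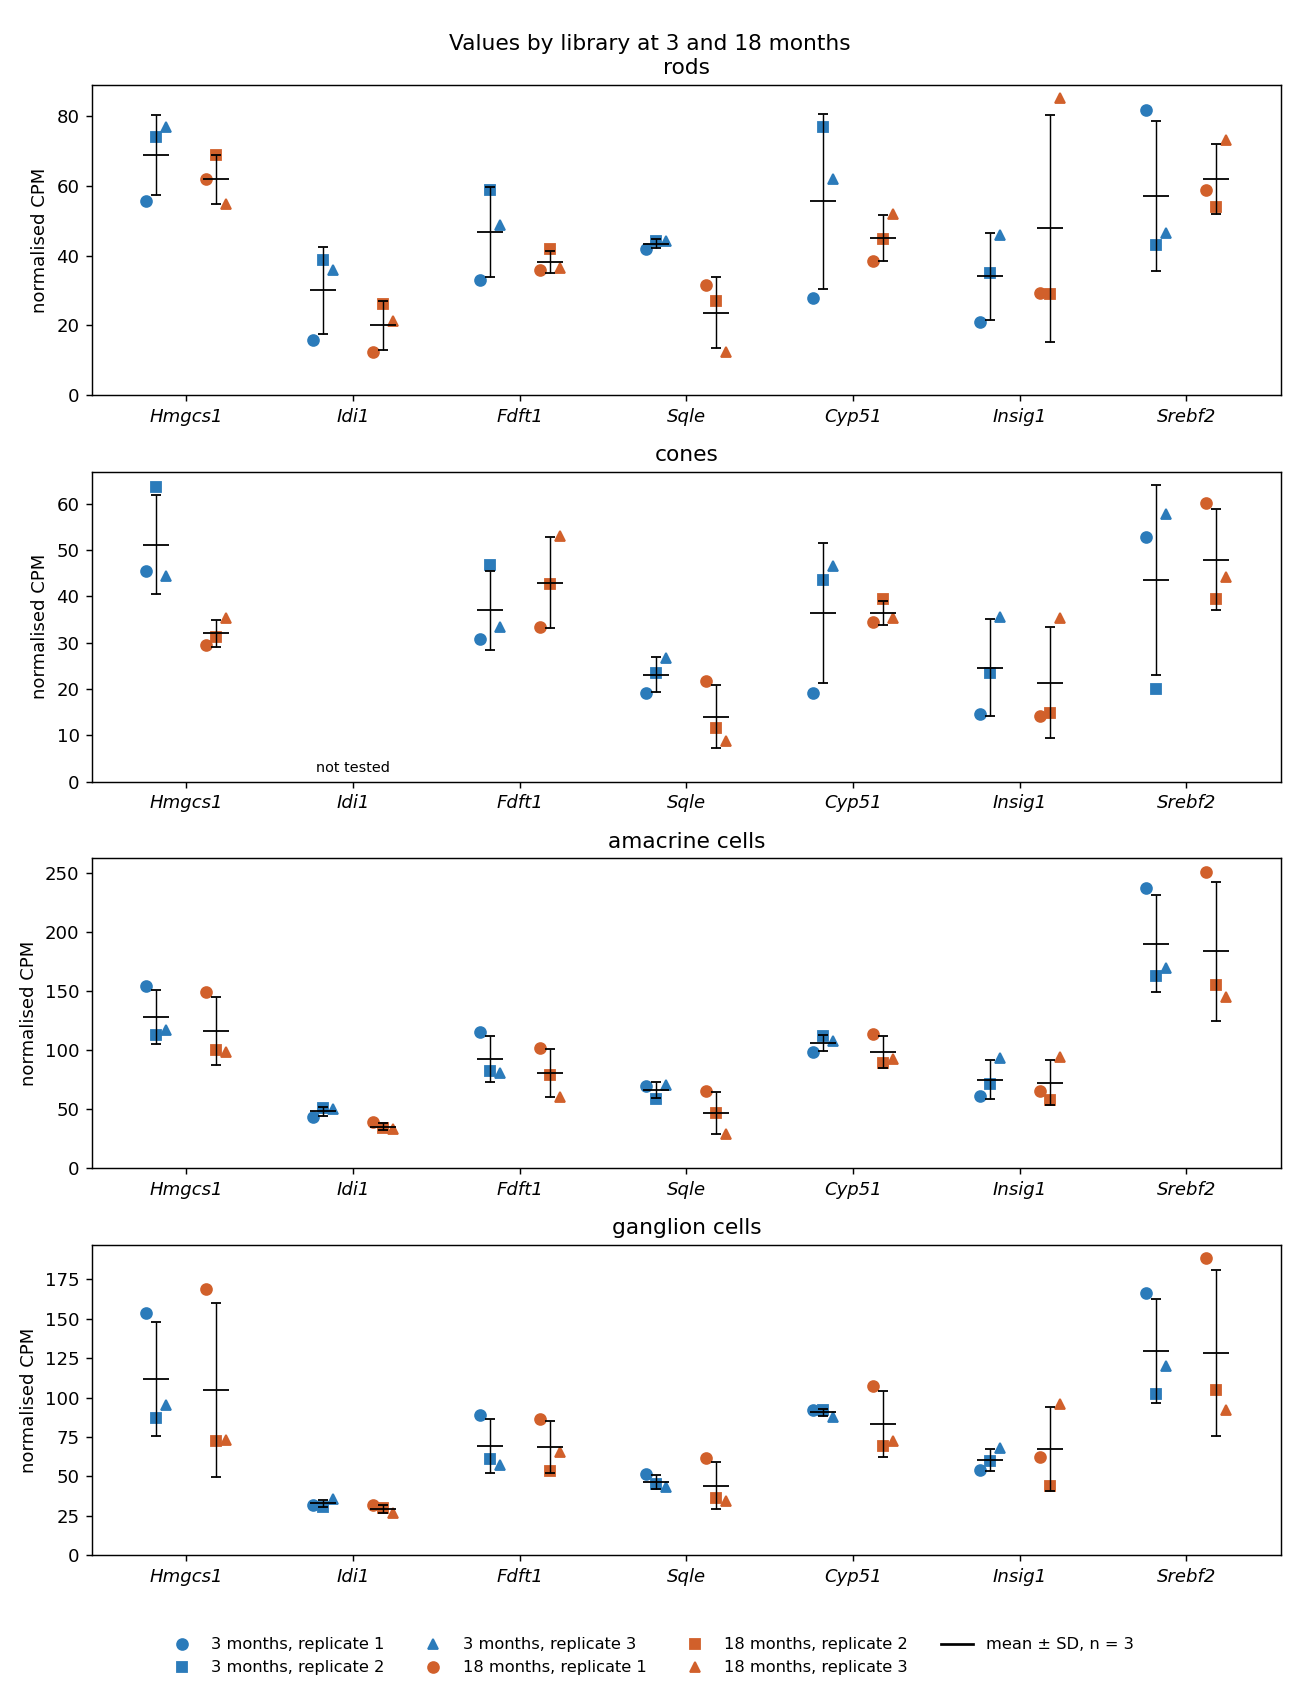
Normalised CPM (linear axis from 0, scaled within each class) of each gene by library at 3 months (blue) and 18 months (orange) in rods, cones, amacrine and ganglion cells; bars are mean ± SD of 3 libraries and shapes give the replicate. Sqle in rods (41.9 to 44.2 against 12.2 to 31.7), Hmgcs1 in cones and Idi1 in amacrine cells do not overlap between ages, and Hmgcs1 and Srebf2 are highest in replicate 1 of both ages in amacrine and ganglion cells.

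Libraries of the same replicate number were alike in some members whatever the age. Srebf2 in retinal ganglion cells was 166.4 and 188.7 in the replicate 1 libraries of 3 and 18 months, against 102.3, 119.8, 104.7 and 91.9 in the other 4. Hmgcs1 there was 153.6 and 168.7, against 72.4 to 95.4. Over the classes, the replicate 1 libraries held the 2 highest values in 3 of 8 for Srebf2 and in 3 of 8 for Hmgcs1. Both replicate 1 libraries were of release 7.1.0, and the release cannot be told apart from the replicate number. For Insig1 it was replicate 3 of both ages, both of release 7.2.0, that held the 2 highest libraries in 7 of 8 classes. In retinal ganglion cells Insig1 was 67.8 and 96.2 in them and 44.1 to 62.1 in the other 4. With the release as a term, 0 members were called in any class.

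The age effect itself was compared between classes by an interaction with a term per library. Sqle differed between rods and amacrine cells by -0.30 ± 0.32 (edgeR, adjusted p = 0.942) and between rods and Müller glia by -0.46 ± 0.53 (adjusted p = 1.0). No member passed in either comparison, and of all genes 0.036% and 0.0175% did, with 547 and 449 at an unadjusted p under 0.05. The alternatives called 0 members too.

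Genes of the related lists were likewise not called by age in any class in the main fit or with the release as a term. By the rule for genes with no overlap, those with the largest changes in rods were Vldlr, at 225.0, 420.3 and 246.7 and then 173.2, 146.6 and 118.9 (-1.02 ± 0.35, adjusted p = 0.61), and the sterol reductase gene Lbr (-0.55 ± 0.29, adjusted p = 0.61). In cones the efflux pump gene Abca1 stood at 19.1, 16.7 and 13.3 and then 34.5, 37.8 and 35.3 (1.11 ± 0.39, adjusted p = 1.0). In amacrine cells Msmo1 stood at 119.8, 110.5 and 105.4 and then 99.8, 69.6 and 54.6 (-0.55 ± 0.25, adjusted p = 1.0). In rod bipolar cells Lrp1 stood at 15.4, 18.7 and 30.3 and then 81.0, 40.9 and 65.3 (1.23 ± 0.41, adjusted p = 0.949). Among the genes that the rule took, Vldlr in rods passed with the replicate block (-1.02, adjusted p = 0.0198, edgeR), which called 9.74% of genes there. It also passed within release 7.2.0 (-1.21, adjusted p = 0.0215), where 1396 of 12573 genes were called. Abca1 in all kept nuclei passed within release 7.2.0 (0.81, adjusted p = 0.0243), where 1395 of 18012 genes were called.

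In the sum of all kept nuclei, which needs no class names but carries the makeup of each library, every member overlapped between the ages. The changes ran from -0.23 ± 0.20 for Sqle to 0.23 ± 0.42 for Insig1, whose value of 100.4 in 18-month replicate 3 stood against 37.1 to 64.6 in the other 5 libraries. Fewer cells of a type and less RNA per cell cannot be told apart in that sum.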

How the data were processed

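Nuclear RNA of 6 retina libraries was measured. The authors deposited unnormalised UMI counts for each gene in each barcode; per the file headers they came from Cell Ranger 7.1.0 (replicate 1 of both ages) or 7.2.0, and the submitters' processing notes name build mm10 and Seurat. Barcodes with at least 300 genes and at most 5% mitochondrial UMIs were kept (55230 of 62893), and the highest Scrublet scores were removed at 0.8% per 1000 nuclei, which left 50241. Clustering used scanpy 1.11.5 (2000 variable genes without the members and related lists, 30 components, 15 neighbours, Leiden resolution 1). A cluster was named if at least 3, and at least 25%, of the markers of 1 class exceeded the other clusters by a log2 fold over 1 and no other class matched it as well (the last condition was added after the clusters were seen); clusters under 300 nuclei were divided again.

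Counts were summed per library and class. edgeR 4.0.16 (R 4.3.3, limma 3.58.1) fitted age alone, or class and library, with TMM, filterByExpr and Benjamini-Hochberg adjustment over all genes; scripts were tested on simulated data. DESeq2 1.42.0, RLE and library-size scaling, no filter, release and replicate terms, each library left out, release 7.2.0 alone, resolution 0.5 and a 2% mitochondrial limit were alternatives. The labels do not say that libraries are separate animals, so p-values reflect how these libraries vary, which can be technical variation. Class totals ran from 93034 UMIs (Müller glia) to 8645158 (retinal ganglion cells) per library, so members with few UMIs are imprecise. Replicate numbers, given in the titles, were taken to pair libraries where every same-numbered pair's deviations correlated above 0.1: rods (0.59, 0.615, 0.157), rod bipolar cells (0.447, 0.358, 0.165), retinal ganglion cells (0.635, 0.369, 0.187) and all nuclei (0.743, 0.644, 0.269).

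The members and lists were chosen with earlier results of these data known. Members are named in every tested class; list genes are named where they pass (up to 4 per direction), otherwise the 3 largest changes with a mean of at least 20 CPM and no overlap between the ages. Not all genes that the rule takes are named, and 1 is not reported here.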

Additional observations from a re-analysis of the deposited data

Results flagged for a closer look

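In 3 of 56 sets of 6 libraries (7 genes in 8 classes) 1 library stood far from the other 5, where chance flags about 1 set in 20; the values are normalised CPM scaled over all classes. Insig1 in rods was 82.9 in 18-month replicate 3, against 20.3 to 41.7 in the others, on 28 UMIs. Sqle in cone bipolar cells was 38.2 in the same library, against 18.5 to 25.6, on 9 UMIs, and 58.9% of its cone bipolar nuclei came from the cluster that held 100% of them in the other libraries. Fdft1 in Müller glia was 79.5 in 3-month replicate 2, against 33.7 to 42.1, on 10 UMIs. The cause was not tested.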

How the results depend on the processing

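The count of members called by age stayed at 0 in all 141 fits, and so did the counts for the difference of age effects. With the replicate block, which changed no call of a member, Sqle in rods had a change of -0.81. The numbers were not taken to pair libraries in cones, cone bipolar, amacrine and horizontal cells and Müller glia. There the pair of number 3 correlated by 0.0172 to 0.0878, and the highest correlation between different numbers was 0.28 to 0.473. Where they were taken to pair, the latter was 0.459 in rods, 0.4495 in rod bipolar cells, 0.358 in retinal ganglion cells and 0.539 in all nuclei. Each of these was above the pair of number 3 there. In the classes not taken as paired, the block changed the all-gene calls in horizontal cells only, from 1 to 98. All-gene calls by age moved more: from 0 to 88 in rods and 204 in rod bipolar cells with the release as a term, to 1241 and 65 with the block, and to 1396 in rods, 581 in rod bipolar cells and 1395 in all nuclei with release 7.2.0 alone. With no low-count filter they went from 1 to 235 in horizontal cells and from 0 to 26 in cones, 42 in cone bipolar cells, 18 in amacrine cells and 34 in Müller glia. In retinal ganglion cells they stayed at 0 in every alternative, with 280 genes at an unadjusted p under 0.05 in the main analysis. DESeq2 called 15 genes in rods, 46 in horizontal cells, 11 in Müller glia and 15 in all nuclei.

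By class, all 7 members stayed higher in amacrine and retinal ganglion cells. Counts below are of members called in either direction, and not always of the same genes. With library size as the only scaling, chosen after seeing the data, the number called in rod bipolar cells was 2 (5 in the main analysis) and in cone bipolar cells 0 (1). With no filter these were 3 in rod bipolar cells and 0 in horizontal cells (1). At a resolution of 0.5 the counts were 2 in rods (1) and 0 in horizontal cells. With a 2% mitochondrial limit they were 2 in rods, 2 in rod bipolar cells, 0 in cone bipolar cells and 0 in horizontal cells. Leaving out each library gave 1 to 2 in rods (2 without 18-month replicate 1 or 3), 3 to 4 in rod bipolar cells (3 without 3-month replicate 3 or 18-month replicate 1 or 2), 0 to 1 in cone bipolar cells (0 without 3-month replicate 2 or 3 or 18-month replicate 1 or 3), 0 to 1 in horizontal cells (1 only without 18-month replicate 2) and 0 to 1 in Müller glia (0 without 18-month replicate 1 or 2; without replicate 3 the call of Srebf2 was lost and Hmgcs1 was called lower, -0.57, adjusted p = 0.0353). The cause was not tested. Resolution 0.5 was not run for rod bipolar cells and Müller glia, which had fewer than 20 nuclei in a library there. Depth limits the small classes: members had as few as 0 UMIs in a library of cones or rod bipolar cells and 1 in Müller glia.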
